A study of Mus musculus with 8 samples.

Results

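MHC class II antigen presentation was described here through 7 genes of mouse spinal cord: the class II chains H2-Aa, H2-Ab1 and H2-Eb1, the invariant chain Cd74, the transcriptional co-activator Ciita, and the peptide-exchange chains H2-DMa and H2-DMb1. They were taken by symbol, and all 7 were found among the 47643 gene rows of the count table. RNA from the spinal cord of 8 C57BL/6 mice was sequenced as 1 library each, with 4 mice labelled heterozygous and 4 labelled homozygous for a deletion of Arf1. Arf1 is a small GTPase needed for the coating of Golgi vesicles, and the design note names its role in neurons as the subject. The labels give tamoxifen at 100 mg/kg as the means of deletion with the same wording for every sample, an age of 2 to 10 months for the whole study, and no sex. They name no Cre driver, so the cells that lost Arf1 are not stated, and there was no group without an Arf1 deletion allele. The titles carry a different animal number for each library.

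Class II molecules are pairs of an alpha and a beta chain that carry peptides from engulfed material to the cell surface, where CD4+ T cells read them. In the endoplasmic reticulum the invariant chain fills the peptide groove and guides the pair to endosomes; cathepsins degrade it, and the DM heterodimer exchanges the remaining fragment for other peptides. Dendritic cells, B cells and macrophages of the meninges and vessels make class II in the healthy spinal cord, whereas resting microglia make little, and interferon-gamma induces it through Ciita.

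Class II promoters share an X box, bound by the RFX complex, and a Y box, bound by NF-Y, which together recruit Ciita. The stretches below show how far that layout was found in 2 of the chains that the results turn on, H2-Aa and H2-Eb1, and in H2-DMb1 with its close copy H2-DMb2. All 4 hold the Y box letters searched, whereas H2-Aa and H2-DMb2 hold no full match to the X1 pattern. Each runs 5′ to 3′ on the gene's own strand and is taken from RefSeq (GRCm38.p6), and capitals mark the Y box letters ATTGG (or CCAAT, the same box on the other strand) and a full match to the X1 pattern. The stretches are chr17:34287840-34287921 (minus strand) for H2-Aa, chr17:34305758-34305839 for H2-Eb1, chr17:34153080-34153161 for H2-DMb1 and chr17:34145109-34145190 for H2-DMb2 (plus strand).
H2-Aa: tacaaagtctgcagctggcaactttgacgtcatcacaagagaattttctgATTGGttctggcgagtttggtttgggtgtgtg
H2-Eb1: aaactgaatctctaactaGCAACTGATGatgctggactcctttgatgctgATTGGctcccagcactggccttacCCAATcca
H2-DMb1: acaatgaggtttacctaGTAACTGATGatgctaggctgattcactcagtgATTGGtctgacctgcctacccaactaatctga
H2-DMb2: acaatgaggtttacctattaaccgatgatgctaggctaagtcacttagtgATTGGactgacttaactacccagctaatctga

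ATTGG began 48 bases before the RefSeq transcript start of H2-Aa, 59 before that of H2-Eb1, 61 before that of H2-DMb1 and 90 before that of H2-DMb2. The GENCODE genes H2-DMb1 and H2-DMb2 begin earlier, at chr17:34153072 and chr17:34143307, so their stretches lie within those annotated genes. The X1 pattern searched was a G, any 2 bases, AC, any base and GATG, on both strands. In H2-Eb1 and H2-DMb1 it was followed after 22 and 23 bases by ATTGG. Of all 32851 promoter windows of 300 bases (250 before the start and 50 after), 37.4% held the Y box on either strand, 2.97% the X1 pattern and 0.116% the X1 pattern followed within 40 bases by ATTGG on the same strand. Of 9 windows of class II genes 8 held the Y box and 3 the X1 pattern followed by it, those of H2-Eb1, H2-DMb1 and H2-Eb2. H2-DMa had 2 windows, which differed in composition. The one that matched a GENCODE transcript (chr17:34122582-34122881) was 73% GC with 29 CG dinucleotides and held neither motif. That window also overlaps the start of Brd2, whose gene runs from 34122634 on the minus strand. The other window, which matched no transcript, was 39% GC with 0 CG dinucleotides and held the Y box without the X1 pattern. H2-Aa, H2-Eb1 and H2-DMb1 were at 47.3% to 50.7% GC with 0 to 3 CG dinucleotides. H2-Ab1, Ciita and Cd74 were not matched in the promoter table. The stretches of H2-DMb1 and H2-DMb2 had 72 of 82 bases equal, which compares promoters and not transcripts. Reads that fit both genes are divided between them by the counting program, so their values are less certain. The share of such reads was not measured.

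Library totals ran from 29857210 to 37803594 expected counts for heterozygous mice and from 26321522 to 37879426 for homozygous mice. Arf1 stood at 296 to 334 CPM (counts scaled to a common library total, here by the trimmed mean of M-values, TMM) in the heterozygous libraries and at 22.5, 22.8 and 39.9 CPM in homozygous replicates 2, 3 and 4, but in homozygous replicate 1, as labelled, it was at 307 CPM. The Arf1 level of that library goes against its label, so each comparison is given over all 8 libraries and over the 7 without it. Ribosomal bases made up 2.44% in homozygous replicate 3 and 0.10% to 0.34% elsewhere. Mapped reads were 92.36% in homozygous replicate 3 and 98.33% to 98.53% elsewhere. The RNA integrity number was 8 in homozygous replicate 4 and 9 in every other library. The libraries carried markers of nervous tissue, such as the myelin gene Mbp at 4168 to 8234 CPM and the synaptic gene Snap25 at 2352 to 3221 CPM. Other genes of the spinal cord list varied more between libraries, with Hoxc8 at 2.90 to 21.6, Hoxc10 at 1.12 to 15.1 and Slc6a5 at 24.1 to 91.3 CPM. Of the 12 genes on that list 2, Slc6a5 and Slc17a6, were highest in heterozygous replicates 3 and 4.

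Per unit length, H2-DMa was the highest of the 7 genes and Ciita the lowest. Mean levels over the 8 libraries were 12.6 ± 1.84 TPM (transcript share per unit length; SD, n = 8) for H2-DMa, 6.65 ± 3.85 for Cd74, 4.14 ± 3.34 for H2-Aa, 3.15 ± 0.766 for H2-DMb1, 3.0 ± 1.88 for H2-Eb1, 2.32 ± 1.53 for H2-Ab1 and 0.0425 ± 0.0271 TPM for Ciita. H2-DMa was above Cd74, Cd74 above H2-Aa, and H2-Ab1 above Ciita in all 8 libraries. H2-Aa exceeded H2-DMb1 in 4 of 8 libraries, H2-DMb1 exceeded H2-Eb1 in 5 and H2-Eb1 exceeded H2-Ab1 in 7, so the middle of this order lay within the spread between libraries. The H2-DMa gene overlaps Brd2 on the other strand (chr17:34112023-34122634), which had a mean log2 CPM of 7.62 against 3.37 for H2-DMa. The counting program's strand setting was not seen. Whether Brd2 reads add to the H2-DMa level was not tested.

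The 3 class II chains had lower means in the homozygous libraries, and none passed the test over all genes. H2-Aa encodes the alpha chain of the I-A molecule and spans chr17:34282744-34287823 (GRCm38, minus strand). Its level was 2.11, 1.33, 5.86 and 3.90 CPM in heterozygous replicates 1 to 4 and 1.88, 0.670, 1.49 and 0.946 CPM in homozygous replicates 1 to 4, from 18 to 214 counts a library. Heterozygous replicates 3 and 4 were highest, homozygous replicate 2 was lowest, and the groups overlapped because heterozygous replicate 2 lay below homozygous replicates 1 and 3. The log2 fold change, homozygous over heterozygous, was -1.39 (SE 0.48, edgeR quasi-likelihood adjusted p = 0.208) over 8 libraries and -1.68 (SE 0.53, adjusted p = 0.144) over 7. In bulk tissue, fewer class II cells and less class II RNA per cell cannot be told apart, here or for the genes that follow.

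H2-Ab1, the beta chain of I-A (chr17:34257689-34269419, plus strand), was at 1.28, 1.5, 2.93 and 2.41 CPM in the heterozygous and at 1.12, 0.335, 0.766 and 0.946 CPM in the homozygous libraries, replicates 1 to 4. Every homozygous library lay below every heterozygous one, although homozygous replicate 1 and heterozygous replicate 1 differed little. Its log2 fold change was -1.33 (SE 0.37, edgeR adjusted p = 0.144) over 8 libraries and -1.56 (SE 0.40, adjusted p = 0.0881) over 7. H2-Eb1, the beta chain of the I-E molecule (chr17:34305867-34316674, plus strand), was at 1.84, 1.66, 3.29 and 3.25 CPM against 1.51, 0.521, 1.21 and 0.913 CPM. Its groups did not overlap either, and heterozygous replicates 3 and 4 were again the highest. Its log2 fold change was -1.26 (SE 0.34, edgeR adjusted p = 0.143) over 8 libraries and -1.51 (SE 0.36, adjusted p = 0.0709) over 7, a fitted heterozygous level 2.39 and 2.86 times the homozygous one. C57BL/6 mice are known to lack the I-E alpha chain, and the pseudogene row H2-Ea-ps held 0 counts in 7 of the 8 libraries and 1 in the other.

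**Figure D1:**
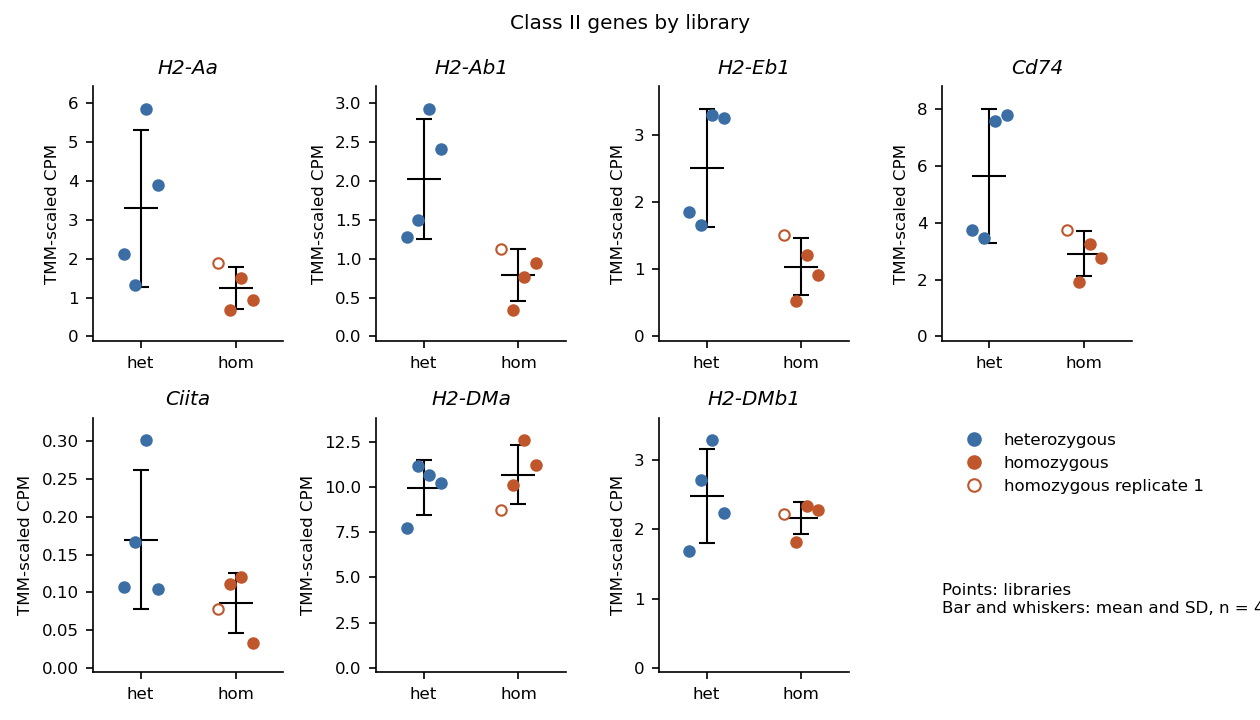
TMM-scaled CPM (y axis, from 0, its own scale in each panel) of the 7 class II genes in each heterozygous (het) and homozygous (hom) library; points are libraries, the open point is the library labelled homozygous replicate 1, and bars with whiskers are mean and SD of 4. The upper row shows heterozygous replicates 3 and 4 above all other libraries, as in Cd74 at 7.59 and 7.80 CPM, while the H2-DMa and H2-DMb1 panels show overlapping groups.

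Cd74 encodes the invariant chain, the chaperone of every class II pair. It stood at 3.74, 3.46, 7.59 and 7.80 CPM in the heterozygous and at 3.73, 1.90, 3.26 and 2.77 CPM in the homozygous libraries. Homozygous replicate 1 lay between heterozygous replicates 1 and 2, so the groups overlapped over 8 libraries and did not over 7. The log2 fold change was -0.95 (SE 0.31, edgeR adjusted p = 0.194) over 8 libraries and -1.10 (SE 0.35, adjusted p = 0.143) over 7.

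Ciita, the co-activator that switches on class II promoters, was close to the limit of detection. Its counts were 4, 5, 11 and 4 in the heterozygous and 3, 3, 3 and 1 in the homozygous libraries, or 24 and 10 in all. The mean was 0.170 ± 0.0922 against 0.0859 ± 0.0399 CPM (SD, n = 4 and 4; two-sided exact permutation test p = 0.171, with 0.0286 the smallest this design allows). Over 7 libraries that exact permutation test gave p = 0.343, where 0.0571 is the smallest possible, so no call at 0.05 could have been made there. Its level did not pass the expression filter of the fits. Fitted with edgeR without that filter, Ciita was at a log2 fold change of -0.99 (SE 0.61, adjusted p = 0.560) over 8 libraries and -0.96 (SE 0.70, adjusted p = 0.605) over 7, so no difference in Ciita was detected.

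The DM chains, which together catalyse peptide exchange, had overlapping groups. H2-DMa (chr17:34119541-34139101, plus strand) was at 7.75, 11.2, 10.7 and 10.2 CPM in the heterozygous and at 8.72, 10.1, 12.6 and 11.2 CPM in the homozygous libraries, with groups that overlapped. Its log2 fold change was 0.10 (SE 0.14, edgeR adjusted p = 0.749) over 8 libraries and 0.19 (SE 0.14, adjusted p = 0.489) over 7, and its sign turned on the log2 TPM scale and without heterozygous replicate 1 (-0.00 over the 7 remaining libraries). H2-DMb1 (chr17:34153072-34160230, plus strand) was at 1.68, 2.72, 3.28 and 2.24 CPM against 2.21, 1.81, 2.33 and 2.28 CPM. Its log2 fold change was -0.20 (SE 0.21, edgeR adjusted p = 0.659) over 8 libraries and -0.21 (SE 0.24, adjusted p = 0.661) over 7. A p that misses the threshold does not show that their levels were equal.

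Of the 7 genes 6 passed the filter on low counts, and edgeR called 0 of them in either fit. Over 8 libraries edgeR called 0% of all 16511 genes tested, and over 7 it called 1.22% of 16560, with 0.67% lower. At an unadjusted p under 0.05, 4 of the 6 were lower in both fits (H2-Aa, H2-Ab1, H2-Eb1 and Cd74), where 8.9% of all genes tested were lower over 8 libraries and 9.94% over 7. Every homozygous library lay below every heterozygous one for 2 of the 6 over 8 libraries and for 3 over 7, against 4.66% and 8.78% of all genes. DESeq2 called the same 4 genes lower in both fits, with 2.9% and 4.09% of its genes called lower, and limma-voom called 0 members in both. The median log2 fold change of the 6 genes was -1.10 and -1.31, beside 0.00 over all genes tested in each fit.

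The authors' deposited table of their comparison lists the same 4 genes as lower. It was made from 6 libraries, heterozygous and homozygous replicates 2, 3 and 4, and lists 185 genes, 110 lower and 75 higher, with Arf1 at a log2 fold change of -3.50. In the authors' deposited table H2-Eb1 is at -1.72 (false discovery rate 0.00117), H2-Ab1 at -1.80 (0.00120), Cd74 at -1.33 (0.00683) and H2-Aa at -1.92 (0.00998); H2-DMa, H2-DMb1 and Ciita are not listed in the authors' deposited table. The edgeR quasi-likelihood fit used here, run on the same 6 libraries, called 0 of the 7 genes and 0.974% of 16425 genes lower. The sources used here do not give the settings behind the authors' deposited table.

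Along the class II interval of chromosome 17, from H2-Oa to H2-Eb2 (chr17:34092340-34341412, GRCm38), 13 genes were tested. H2-Ab1, H2-Aa and H2-Eb1 lie next to each other among them at the H2-Eb2 end, and H2-DMa and H2-DMb1 lie near H2-Oa. The 8 other tested genes had log2 fold changes of -0.36 to 0.44 over 8 libraries (median 0.04) and -0.36 to 0.65 over 7 (median 0.01). edgeR called none of the 8, with 0 and 1 at an unadjusted p under 0.05. DESeq2 and limma-voom called none of those on the class II and class I lists, and Brd2 is on neither list. The 8 include the peptide transporter genes Tap1 and Tap2 and the immunoproteasome genes Psmb8 and Psmb9, which serve class I presentation. Tap1 was at 0.37 (SE 0.18) and 0.44 (SE 0.20), opposite in sign to the chains. The interval was chosen by position after the values of the chains were known.

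**Figure D2:**
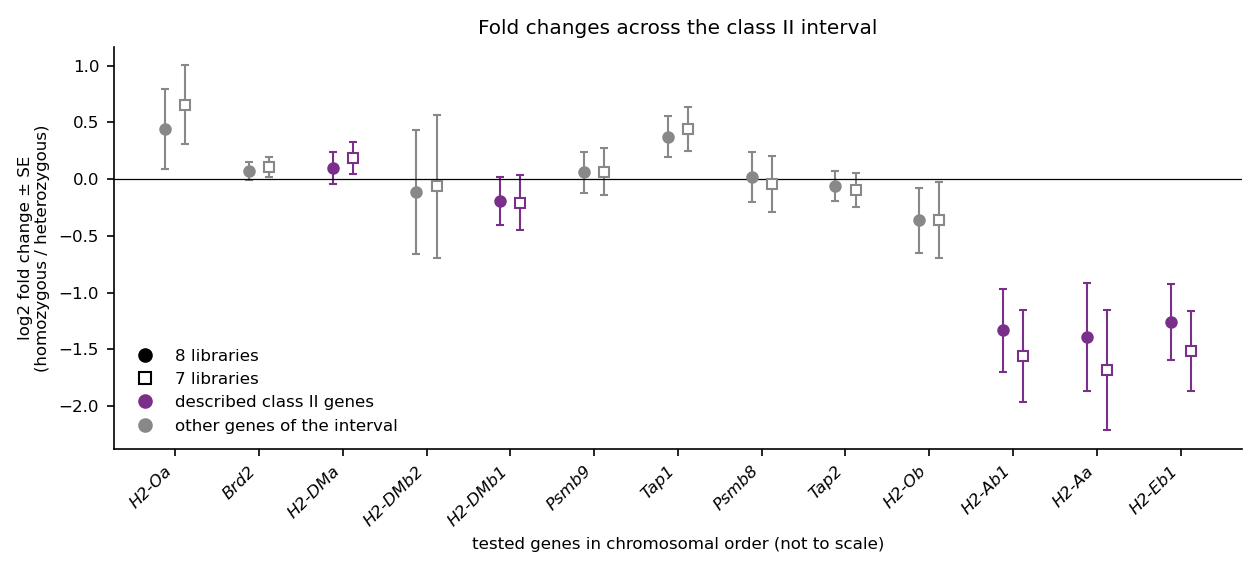
Log2 fold change of homozygous over heterozygous with its SE (y axis) for the 13 tested genes of the class II interval in chromosomal order (x axis, not to scale), from the fits of 8 libraries (filled circles) and 7 libraries (open squares); purple marks the 5 class II genes described here that lie in the interval. H2-Ab1, H2-Aa and H2-Eb1 lie between -1.26 and -1.68 at the right, and the other 10 genes lie between -0.36 and 0.65.

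H2-Aa, H2-Ab1, H2-Eb1 and Cd74 followed a similar course from library to library. The SD of log2 TPM over the 8 libraries was 1.09 for H2-Aa, 1.08 for H2-Ab1, 0.99 for H2-Eb1 and 0.78 for Cd74, whereas the SD of each chain's log2 ratio to Cd74 was 0.36, 0.43 and 0.29. H2-DMa and H2-DMb1 spread less, with SDs of 0.22 and 0.35, and their log2 ratio to each other had an SD of 0.21. Relative to Cd74 the chains had lower mean ratios in the homozygous libraries. The mean log2 ratio of H2-Eb1 to Cd74 was -1.02 ± 0.12 in the heterozygous and -1.44 ± 0.25 in the homozygous libraries (SD, n = 4 and 4), from -1.15 to -0.90 and from -1.78 to -1.21, so the groups did not overlap. For H2-Aa the ratio was -0.67 ± 0.41 and -1.05 ± 0.22, with overlap. For H2-Ab1 it was -1.38 ± 0.22 and -1.90 ± 0.44, also with overlap, since homozygous replicate 4 lay above heterozygous replicates 1 and 4. These ratios were not tested.

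The mean profile of those 4 genes, as log2 CPM centred on each gene's mean, was 0.13, -0.04, 1.24 and 1.03 in heterozygous replicates 1 to 4 and -0.02, -1.37, -0.36 and -0.60 in homozygous replicates 1 to 4. The library labelled homozygous replicate 1, whose Arf1 was at the heterozygous level, thus lay beside heterozygous replicates 1 and 2. The range within the heterozygous group, from replicate 2 to replicate 3, was nearly as wide as the distance from replicate 2 to the lowest homozygous library. Root mean square differences from this profile were 0.105 for H2-Eb1, 0.189 for Cd74, 0.211 for H2-Ab1 and 0.235 for H2-Aa, which form it, against 0.675 for H2-DMb1 and 0.837 for H2-DMa.

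Among 13352 other genes the 6 nearest to the profile over the 8 libraries were Col15a1 (root mean square difference 0.253), Lum (0.289), Col14a1 (0.300), Serpind1 (0.324), Smyd1 (0.325) and Clec3b (0.335), where the median gene was at 0.803. Col15a1 and Col14a1 encode collagens of basement membrane and fibrils, Lum a proteoglycan of collagen fibrils, Clec3b a secreted lectin of connective tissue, Serpind1 a plasma protease inhibitor and Smyd1 a muscle methyltransferase. Col15a1 was at 3.31, 3.46, 6.14 and 5.31 CPM in the heterozygous and at 2.64, 1.60, 2.10 and 2.41 CPM in the homozygous libraries, with heterozygous replicates 3 and 4 highest and homozygous replicate 2 lowest, as in the chains. Lum was at 2.65, 3.32, 6.77 and 5.89 CPM against 1.59, 0.930, 1.97 and 1.92 CPM. Smyd1 alone of the 6 passed, over 7 libraries (log2 fold change -1.41, SE 0.22, edgeR adjusted p = 0.0256). That call was lost when heterozygous replicate 3 or 4 or homozygous replicate 2 or 3 was left out as well (up to 0.110).

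**Figure D3:**
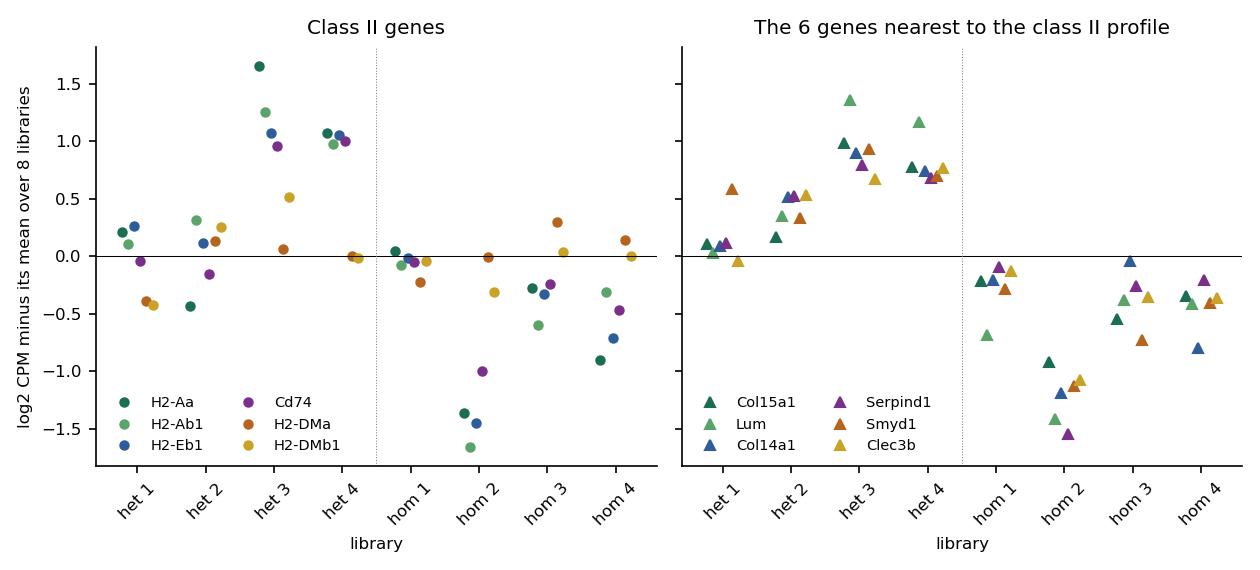
Log2 CPM of each gene minus its mean over the 8 libraries (y axis) in each library (x axis; het, heterozygous; hom, homozygous), for 6 class II genes (left) and for the 6 genes nearest to the mean profile of H2-Aa, H2-Ab1, H2-Eb1 and Cd74 (right); points are shifted sideways for sight. Both panels show high values in het 3 and het 4 and low ones in hom 2, whereas H2-DMa stays between -0.39 and 0.30. The genes on the right were chosen for their nearness to the profile, so their shared shape follows from that choice.

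edgeR called none of the remaining genes of the pathway in either fit, and limma-voom none either. DESeq2 called March1 lower over 8 libraries and, over 7, Nfya, Jak1 and March8 lower and Ctsd higher. Of the other class II genes H2-Oa and H2-Ob, which encode the DM inhibitor DO, were at 0.164 to 0.457 and 0.298 to 0.632 CPM over the 8 libraries, and of 5 measured genes 3 were tested. H2-DMb2 was at 0.169 to 0.828 CPM. None of the 3 tested had an unadjusted edgeR p under 0.05 in either fit. The promoter-binding factors were all tested, 7 of 7, with a median log2 fold change of 0.03 over 8 libraries and 0.06 over 7, and in both fits 1 of them had an unadjusted p under 0.05 in each direction, where 7.87% of all genes tested were higher over 8 libraries and 9.51% over 7. The 2 with the highest mean TPM, Rfxap of the RFX complex and Nfyb of NF-Y, were at 0.09 (SE 0.07, edgeR adjusted p = 0.526) and 0.02 (SE 0.08, adjusted p = 0.940) over 8 libraries. Rfx5, another RFX subunit, was at 0.12 (SE 0.12, edgeR adjusted p = 0.615) over 8 libraries, and Nfya, another NF-Y subunit, was at -0.33 (SE 0.10, adjusted p = 0.173) and, over 7 libraries, at -0.42 (SE 0.09, adjusted p = 0.0634). Nfya stood at 25.4, 23.8, 21.4 and 21.2 CPM in the heterozygous and at 21.5, 16, 17 and 18.6 CPM in the homozygous libraries.

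Upstream of Ciita, interferon-gamma itself (Ifng) had 0 counts in all 8 libraries, while its receptor chains were present, Ifngr1 at 14.0 to 15.8 CPM and Ifngr2 at 36.2 to 42.6 CPM. Of the 9 genes from interferon-gamma to Ciita 7 were tested and 0 called, with 2 lower at an unadjusted edgeR p under 0.05 in both fits and a median log2 fold change of -0.04 and -0.03. Jak1, the receptor's kinase, was at 219, 194, 185 and 189 CPM against 183, 167, 174 and 160 CPM (edgeR adjusted p = 0.203 and 0.138). Among the endosomal proteases and turnover genes 12 of 13 were tested over 8 libraries and all 13 over 7, with medians of 0.05 and 0.15 and 0 called. At an unadjusted edgeR p under 0.05, 3 were higher and 2 lower over 8 libraries, and 5 and 2 over 7. The cathepsin genes Ctsd and Ctsb, highest of the list in mean TPM, were at 0.31 (SE 0.11, edgeR adjusted p = 0.222) and 0.12 (SE 0.06, adjusted p = 0.338) over 8 libraries. Ctss, the cathepsin that trims the invariant chain, was at 61.7, 55.9, 64.4 and 49.9 CPM in the heterozygous and at 71.7, 61.7, 71.2 and 86.5 CPM in the homozygous libraries, so its mean was higher where those of the chains were lower; it did not pass (0.33 on the log2 scale, SE 0.11, edgeR adjusted p = 0.188). March1, a ligase that removes class II from the surface, was at 33.2 to 34.5 CPM in the heterozygous and 26.6 to 30.7 CPM in the homozygous libraries and did not pass (edgeR adjusted p = 0.144).

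Of the 7 co-stimulation genes 5 were tested and 0 called, with 1 higher at an unadjusted edgeR p under 0.05 in both fits. Cd86, a ligand of T cell CD28, was at 1.23 to 2.00 CPM in the heterozygous and 1.30 to 2.22 CPM in the homozygous libraries, and Icosl at 5.02 to 5.94 and 4.86 to 8.93 CPM. Icam1, an adhesion ligand of T cells, was at 1.70 to 2.22 and 2.53 to 3.82 CPM, without overlap, and did not pass (edgeR adjusted p = 0.217 and 0.173). All 10 class I presentation genes were tested and none called by edgeR, DESeq2 or limma-voom, with 0 over 8 and 2 over 7 libraries at an unadjusted edgeR p under 0.05 and a median log2 fold change of 0.02 over 8 libraries and 0.05 over 7. B2m, the light chain of class I, was at 70.5, 71.4, 81.3 and 71.1 CPM against 67.7, 75.4, 91.5 and 91.3 CPM (0.15 on the log2 scale, SE 0.10, adjusted p = 0.474 by edgeR), and H2-D1, a class I heavy chain, was at 0.01 (SE 0.11, adjusted p = 0.982).

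Most marker genes of cells that make class II were low. The B cell genes Ms4a1, Cd79a and Cd79b summed to 0.374, 0.399, 0.740 and 1.23 CPM in the heterozygous and to 0.392, 0.298, 0.363 and 0.261 CPM in the homozygous libraries, and 9 of the 10 B cell genes were not tested over 8 libraries. This sum was highest in heterozygous replicates 3 and 4, where the chains were highest. Those 2 libraries were the highest for 4 of the 10 B cell genes. Within the sum, Cd79b was lower in heterozygous replicate 3 (0.110 CPM) than in heterozygous replicates 1 and 2 (0.187 and 0.299 CPM). Cd22 had a higher mean in the homozygous libraries, at 0.0935, 0, 0.329 and 0.183 against 0.287, 0.447, 0.443 and 0.228 CPM. Most of the B cell list's summed level, 32 to 40.3 CPM in the heterozygous and 12.9 to 31.0 CPM in the homozygous libraries, came from Ighm, the heavy chain of IgM. Ighm stood at 37.1, 39.6, 35.6 and 29.8 CPM against 30.0, 11.6, 14.3 and 21.4 CPM and was lower over 7 libraries (log2 fold change -1.17, SE 0.20, edgeR adjusted p = 0.0405), not over 8 (adjusted p = 0.185). It was not highest in heterozygous replicates 3 and 4.

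Dendritic cell genes summed to 30.9 to 38.7 CPM in the heterozygous and 25.0 to 32.3 CPM in the homozygous libraries, with 6 of 10 tested and 0 called (1 and 2 lower at an unadjusted edgeR p under 0.05, 0 by DESeq2 and limma-voom). The defining genes Xcr1, Ccr7 and Clec9a stood at 0 to 0.0806, 0 to 0.134 and 0.0403 to 0.335 CPM, while most of the sum came from Zbtb46, Siglech and Flt3, which other cells of the cord also express. Border macrophage genes, of the meninges and vessels, summed to 15.5 to 23.3 and 14.6 to 20.1 CPM, with 8 of 10 tested and 0 called (1 lower at an unadjusted edgeR p under 0.05 in both fits, 0 by DESeq2 and limma-voom). The mannose receptor Mrc1 was at 1.95, 1.76, 4.05 and 3.04 CPM in the heterozygous and at 2.14, 1.71, 2.5 and 2.61 CPM in the homozygous libraries, and the haemoglobin receptor Cd163 at 0.989, 0.831, 2.00 and 2.15 CPM against 1.31, 1.53, 1.33 and 1.11 CPM. Both were highest in heterozygous replicates 3 and 4. For Cd163 every homozygous library lay above heterozygous replicates 1 and 2, and for Mrc1 homozygous replicates 1, 3 and 4 did. Those 2 libraries were the highest for 4 of the 10 border macrophage genes, with Stab1 and Ms4a7 beside Mrc1 and Cd163. Lyve1, F13a1 and Folr2 were instead highest in homozygous replicate 4, Siglec1 in homozygous replicate 3, Cbr2 in heterozygous replicate 1 and Pf4 in heterozygous replicate 3. The scavenger receptor gene Stab1, highest of the list in mean TPM, was at 8.66, 9.24, 12.3 and 11.1 CPM against 8.75, 10.5, 6.86 and 10.7 CPM, and the chemokine gene Pf4, next to it, at 0.347 to 0.575 and 0.223 to 0.524 CPM.

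T cell genes summed to 10.6 to 13 CPM in the heterozygous and 11.8 to 18.1 CPM in the homozygous libraries, with 4 of 10 tested and 0 called by edgeR, DESeq2 or limma-voom (1 higher at an unadjusted edgeR p under 0.05 in both fits). The defining genes of the CD3 complex (Cd3d, Cd3e and Cd3g) were at 0 to 0.0785 CPM, and most of the sum came from Trbc2, a T cell receptor constant gene, at 6.79 to 10.7 and 5.77 to 12.1 CPM. Trac, the alpha constant gene, was at 0.187, 0.299, 0.164 and 0.314 CPM in the heterozygous and at 0.627, 0.409, 0.564 and 0.457 CPM in the homozygous libraries. Every homozygous library thus lay above every heterozygous one, and Trac did not pass (log2 fold change 1.1, SE 0.31, edgeR adjusted p = 0.150). Cd4, the co-receptor that binds class II, was at 2.14, 0.765, 0.822 and 2.15 CPM against 8.28, 9.79, 0.725 and 0.848 CPM, high in homozygous replicates 1 and 2 alone. Monocyte and neutrophil genes summed to 5.86 to 13.3 and 5.51 to 36.1 CPM, with 4 of 8 tested and 0 called by edgeR (1 higher at an unadjusted p under 0.05 in both fits). DESeq2 called Chil3 higher over 7 libraries. The neutrophil genes S100a9 and S100a8 were highest in homozygous replicate 4, at 17.3 and 11.9 CPM, against 2.04 to 5.95 and 1.76 to 3.54 CPM in the other libraries.

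Microglia genes did not go one way. Homeostatic microglia genes summed to 319 to 385 CPM in the heterozygous and 269 to 342 CPM in the homozygous libraries, and of 10 tested edgeR called 0 over 8 libraries and Tmem119 lower over 7 (log2 fold change -0.56, SE 0.11, adjusted p = 0.0462). DESeq2 called 0 and, over 7 libraries, 4 lower (Tmem119, P2ry12, P2ry13 and Cx3cr1), where it called 4.09% of all its genes lower, and limma-voom 0 in both. Of 12 genes of disease-associated microglia, a state in which class II is often raised in other settings, edgeR called 0 over 8 libraries and Clec7a, Cst7, Itgax and Cd68 higher over 7. DESeq2 called 3 of them higher over 8 libraries (Clec7a, Itgax and Cd68) and, over 7, those 4 genes with Apoe and Tyrobp, where it called 1.78% and 2.63% of all its genes higher; limma-voom called 0 and, over 7 libraries, Clec7a and Cst7. Itgax, an integrin chain also used as a dendritic cell marker, was at 0.279, 0.0997, 0.521 and 0.445 CPM in the heterozygous and at 0.800, 1.07, 2.60 and 2.01 CPM in the homozygous libraries. Over 7 libraries it was higher by 2.48 on the log2 scale (SE 0.46, edgeR adjusted p = 0.0406). Itgax was thus higher in libraries in which the class II chains had lower means.

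Several markers of meninges, nerve roots and vessels also had lower means in the homozygous libraries. Col3a1, a fibrillar collagen on the meningeal fibroblast list, was at 5.64, 5.29, 10.9 and 11.9 CPM in the heterozygous and at 2.32, 0.856, 2.10 and 2.09 CPM in the homozygous libraries and was lower over 7 libraries (log2 fold change -2.33, SE 0.43, edgeR adjusted p = 0.0498). Of that list 9 of 10 genes were tested, and its summed level was 182 to 331 against 166 to 241 CPM. In both fits 7 of 9 log2 fold changes were negative. Among all genes tested 8193 of 16511 were negative over 8 libraries and 8201 of 16560 over 7. Not every gene of the list was lower: Igf2 was at 33.9 to 107 against 49.8 to 92.4 CPM. Slc6a13 was at 3.34 to 8.88 against 3.66 to 7.93 CPM. The Schwann cell list, of nerve roots, summed to 574 to 1145 against 491 to 676 CPM, with 8 of 10 log2 fold changes negative in both fits. Egr2 of that list was higher in every homozygous library, at 11.7 to 15.5 against 15.6 to 18.3 CPM. Mal, at 299 to 423 against 338 to 517 CPM, made up a large part of the sum. Dhh, the hedgehog ligand of Schwann cells, was at 0.615, 1.40, 2.11 and 1.62 CPM against 0.0522, 0.112, 0.201 and 0.0652 CPM and was lower over 7 libraries (log2 fold change -3.51, SE 0.55, edgeR adjusted p = 0.0256). Among 10 endothelial genes, which summed to 205 to 287 against 142 to 257 CPM, Tie1 was lower over 7 libraries (log2 fold change -1.23, SE 0.24, edgeR adjusted p = 0.0483). Of the endothelial log2 fold changes 9 of 10 were negative in both fits, and Vwf was positive, at 12.3 to 23.7 against 13.3 to 35.2 CPM. Over 8 libraries edgeR called none of these 3 lists' genes. DESeq2, which called the 4 class II genes in that fit, called 6 Schwann cell, 4 meningeal fibroblast and 3 endothelial genes lower over 8 libraries and 7, 4 and 3 over 7, and limma-voom none. Of all its genes DESeq2 called 2.9% lower over 8 libraries and 4.09% over 7. The part of meninges, roots and vessels carried into a library in the level of the class II genes was not tested. Each call over 7 libraries named among these marker genes and Smyd1, 10 in all, was lost in at least 1 of the 7 fits that left out a further library; for Clec7a and Cst7 this happened without homozygous replicate 3 alone (edgeR adjusted p = 0.0572 and 0.0527). The other 8 were each lost without heterozygous replicate 3 or 4 or homozygous replicate 2 or 3, among others, with adjusted p up to 0.182.

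**Figure D4:**
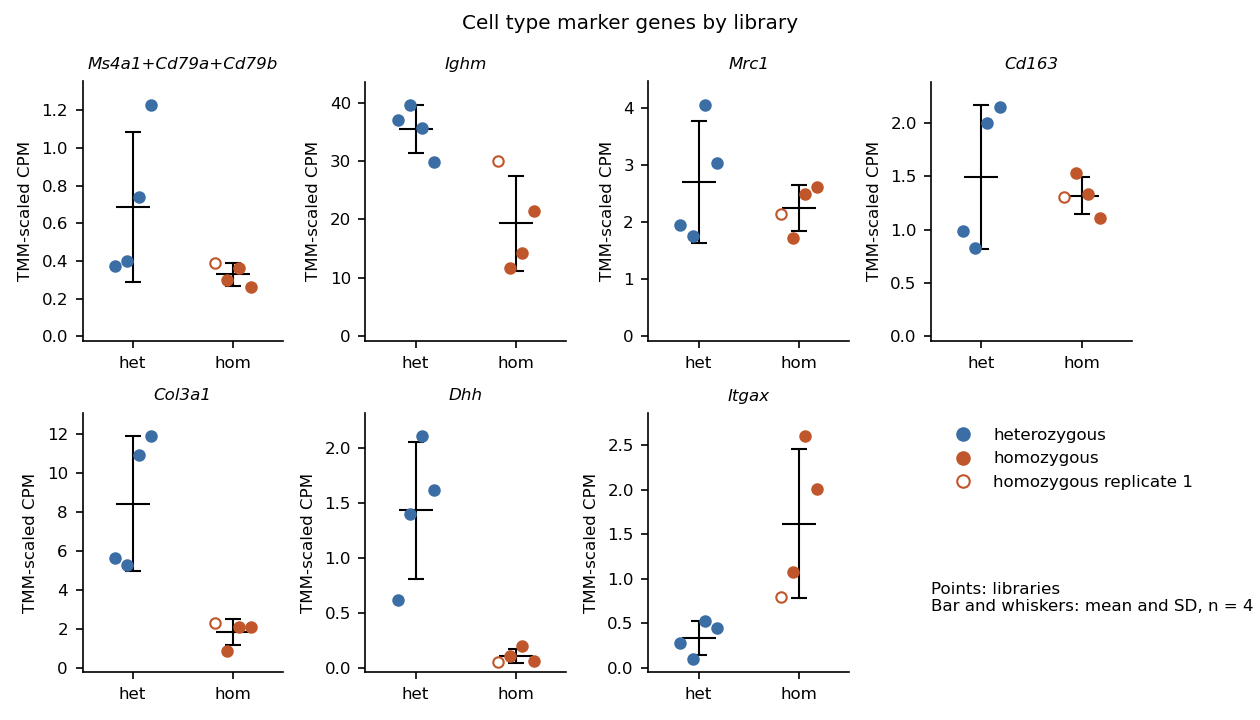
TMM-scaled CPM (y axis, its own scale in each panel) of marker genes in each heterozygous (het) and homozygous (hom) library; points are libraries, the open point is the library labelled homozygous replicate 1, and bars with whiskers are mean and SD of 4. The sum of Ms4a1, Cd79a and Cd79b, from the 10 B cell genes, is highest in heterozygous replicates 3 and 4. So are Mrc1 and Cd163, 2 of 10 border macrophage genes. Col3a1 and Dhh are lower in every homozygous library, and Itgax is higher in every homozygous library.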

How the data were processed

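RNA of 8 spinal cords was sequenced, 1 library each. Reads were processed with cutadapt, STAR (mm10), RSEM and Picard, as named in the submitters' processing notes, which were seen without versions or RSEM's strand setting. The authors deposited, per library, gene tables with RSEM expected counts, TPM, FPKM and other columns such as effective length, per the file headers; FPKM were not used further. The authors deposited a comparison table with log2 fold changes, p-values and false discovery rates, and a table of log2 CPM of its genes. The series table of expected counts held the values of the library tables (largest difference 0). The sequencing report gives ribosomal bases, mapped reads, RNA integrity and other values.

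Expected counts were rounded and fitted with edgeR 4.0.16 (R 4.3.3): filterByExpr by genotype, TMM scaling, robust quasi-likelihood test of homozygous against heterozygous, Benjamini-Hochberg adjustment over all genes tested, threshold 0.05. CPM were TMM-scaled from the 8 libraries; likeness used log2 CPM with a prior count of 2 and genes with a mean above 0. Tools for alternatives were DESeq2 1.42.0 and limma 3.58.1. Python 3.11.15 (pandas 2.3.3, scipy 1.17.1, matplotlib 3.10.9) made tables and figures. The fits were tested on simulated data. Positions come from GENCODE release M21, which matched 47224 of 47643 identifiers.

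The members and gene lists were chosen with earlier results of these data known. Named were all 7 genes; from each other list the genes past the threshold (up to 4), otherwise up to 2 by mean TPM; other list genes, given as values, were picked after their values were seen; and the 6 genes nearest to the class II profile, without predicted genes, Xist and Y-linked genes. Replicates were numbered by order of deposition, and the numbers pair nothing. The animal numbers in the titles point to separate mice, but nothing states litters or cohorts. Library totals of 26321522 to 37879426 leave genes under 1 CPM with few counts.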

Additional observations from a re-analysis of the deposited data

Results flagged for a closer look

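In the heterozygous group 2 summed lists each had 1 of 4 libraries that stood apart, a different one in each, by the gap to the nearest library over the group's range (Dixon's test). The genes from interferon-gamma to Ciita summed to 365 CPM in heterozygous replicate 1 and to 323, 324 and 329 CPM in the others. The class I presentation genes summed to 256 CPM in heterozygous replicate 3 against 213, 216 and 220 CPM. Of 48 groups tested 2 stood apart, and chance gives about 1 in 20; none of the 14 groups of single class II genes did.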

How the results depend on the processing

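The negative log2 fold changes of H2-Aa, H2-Ab1, H2-Eb1, Cd74 and H2-DMb1 held in all alternatives run, 19 over 8 libraries and 17 over 7: median-of-ratios size factors, library totals, no filter, at least 1 CPM, DESeq2, limma-voom, edgeR without its robust option, limma on log2(TPM + 1) and log2(TPM + 0.1), Xist as a covariate, each library left out and, for the 8, the authors' 6 libraries. Over 8 libraries they ranged from -1.85 to -0.97 for H2-Aa, -1.73 to -1.0 for H2-Ab1, -1.64 to -1.03 for H2-Eb1 and -1.25 to -0.75 for Cd74; adjusted p for these 4 ranged from 0.0175 to 0.382 over 8 libraries and from 0.00318 to 0.315 over 7. The count of called members was 0 except in the settings that follow. With DESeq2 it was 4 over 8 libraries and 4 over 7, where 678 and 1065 of all genes were called. Over 7 libraries it was 1 with no filter (H2-Eb1), where 444 of all genes were called. Over 7 libraries it was also 3 with limma on log2(TPM + 1) and 4 on log2(TPM + 0.1), where 2155 and 2240 of all genes were called. The main fit over 7 libraries called 202 of 16560 genes. The cause was not tested. Leaving out each library gave 0 to 0 in both. The log2 TPM scale moved the median of all genes to -0.14 and -0.17 over 8 libraries and to -0.17 and -0.21 over 7. There H2-DMa turned to -0.0836 and -0.0887 over 8 libraries and to -0.0408 and -0.0428 over 7, which relative to that median is 0.06, 0.08, 0.13 and 0.17; with each library left out it ranged from -0.00436 (without heterozygous replicate 1) to 0.186 (without homozygous replicate 1). No paired analysis was possible because the replicate numbers only follow the order of deposition. Depth limits Ciita most, with at most 11 counts a library.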
